A study of Mus musculus with 17 samples.

Results

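In all, 10 genes of the vascular endothelium and of leukocyte adhesion were read in cochlear RNA sequencing of mice: Pecam1, Cdh5, Kdr, Flt1, Tek, Icam1, Icam2, Vcam1, Sele and Selp. They were chosen by name, and all 10 were found among the 35285 genes of the deposited table. The 17 libraries came from 1 mouse each and fell into a control group (n = 3), a noise exposure (NE) group (n = 7) and a brimonidine group (n = 7). The mice in all groups were wild-type male C57BL/6J mice aged 8 weeks, an inbred strain that carries a hypomorphic Cdh23 allele, and the cochleae were taken 2 days after exposure. The NE mice were exposed for 2 h to noise of 8–16 kHz at 100 dB. The brimonidine mice received the same noise and brimonidine, a drug that activates α2-adrenergic receptors. It was injected intraperitoneally 3 times at 1 mg/kg, on the day before, the day of and the day after exposure. The control mice received saline and no noise, and whether the NE mice received a vehicle is not given in the sources used here.

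Endothelial cells line the blood vessels, and in the cochlea they form the capillary network of the stria vascularis and the vessels of the spiral ligament and modiolus. Leukocytes leave the blood in steps: selectins on the vessel wall slow the cells, immunoglobulin-type adhesion molecules hold them through their integrins, and junction proteins open to let them pass. Pecam1 and Cdh5 (VE-cadherin) belong to the junctions, while Kdr and Flt1 are receptors for vascular endothelial growth factors and Tek (Tie2) is the receptor for angiopoietins. Icam1 and Icam2 are ligands of the leukocyte integrins that contain Itgb2, Vcam1 is a ligand of the integrins that contain Itga4, and Sele and Selp (E- and P-selectin) bind glycosylated ligands such as Selplg. Several members are not limited to endothelium: platelets and megakaryocytes make Selp and Pecam1, and macrophages and stromal cells can make Vcam1. Inflammatory cytokines induce Sele, Icam1 and Vcam1 through the transcription factor NF-κB.

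On GRCm38 the 10 genes are protein coding, and their positions in the deposited table were identical to those in GENCODE M21. Sele (ENSMUSG00000026582, chr1:164048234-164057677) and Selp (ENSMUSG00000026580, chr1:164115264-164150026) lie on the plus strand, 57.6 kb apart. Icam2 (ENSMUSG00000001029, chr11:106377656-106388075) and Pecam1 (ENSMUSG00000020717, chr11:106654217-106750628) lie on the minus strand with 266.1 kb between them. Icam1 (ENSMUSG00000037405, chr9:21015985-21028817), Cdh5 (ENSMUSG00000031871, chr8:104101625-104144511) and Tek (ENSMUSG00000006386, chr4:94739289-94874976) are on the plus strand. Vcam1 (ENSMUSG00000027962, chr3:116109949-116129688), Kdr (ENSMUSG00000062960, chr5:75932827-75978458) and Flt1 (ENSMUSG00000029648, chr5:147561604-147726011) are on the minus strand. The annotated genes that overlapped members lay on the opposite strand and reached at most 1.23 FPKM (Gm16587, over Selp), and the libraries were made with a strand-specific kit.

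The promoters of both selectins and of Icam1 are shown because these genes are induced through NF-κB, whose binding sites have the general form GGNNNTTCC. RefSeq promoter sequences (GRCm38.p6, 250 bases before to 50 after the RefSeq start) were at hand for 6 of the members (Kdr, Flt1, Tek, Icam1, Sele and Selp), and 3 of the 6 held this motif on either strand, beside 18.5% of 32851 promoters of the same length. In the sequences, read 5′ to 3′ on the plus strand, capitals mark the motif matches. The window of Sele is chr1:164047984-164048283, that of Selp is chr1:164115014-164115313 and that of Icam1 is chr9:21015690-21015989.
Sele: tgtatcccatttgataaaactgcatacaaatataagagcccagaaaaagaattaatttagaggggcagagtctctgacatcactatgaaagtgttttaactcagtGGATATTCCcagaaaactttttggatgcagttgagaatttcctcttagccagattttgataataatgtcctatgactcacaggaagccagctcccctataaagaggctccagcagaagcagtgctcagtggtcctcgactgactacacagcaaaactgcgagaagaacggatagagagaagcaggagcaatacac
Selp: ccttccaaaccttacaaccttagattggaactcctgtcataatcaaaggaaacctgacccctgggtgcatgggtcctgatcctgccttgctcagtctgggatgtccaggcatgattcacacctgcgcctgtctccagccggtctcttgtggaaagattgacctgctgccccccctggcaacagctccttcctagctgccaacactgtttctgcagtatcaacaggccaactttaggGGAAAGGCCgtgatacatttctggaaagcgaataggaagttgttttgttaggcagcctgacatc
Icam1: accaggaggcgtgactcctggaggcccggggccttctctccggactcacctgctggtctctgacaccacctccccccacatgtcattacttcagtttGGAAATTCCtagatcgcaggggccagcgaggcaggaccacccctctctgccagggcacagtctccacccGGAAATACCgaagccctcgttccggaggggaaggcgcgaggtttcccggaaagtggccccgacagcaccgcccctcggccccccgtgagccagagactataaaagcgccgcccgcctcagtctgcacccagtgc
In Sele the match began 145 bases before the start and read GGATATTCC on the coding strand. In Selp it began 14 bases before the start, and its letters GGAAAGGCC are the reverse complement of the motif form. Icam1 held GGAAATTCC 153 bases before the start, which matches the motif form on both strands, and GGAAATACC 84 bases before it on the reverse strand. The windows of Kdr, Flt1 and Tek held no match. A match describes the letters of the window and not a bound site.

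The libraries held between 14457733 and 18288854 counted fragments, recovered from the steps of the FPKM values (fragments counted on a gene, scaled by its exon length and by the total of the library). Cochlear markers were present, led by Coch at a mean of 609 FPKM, and the labels give the cell type as interstitial cells. Neutrophil and erythroid genes were also abundant, with a summed level of 10 neutrophil genes between 9752 and 64841 FPKM. Control 2 stood apart: it lay at 106 on the first principal component, which held 48.4% of the variance, against 28.4 and 32.2 in the other control libraries and -21.9 to 7.31 in the 14 exposed libraries. Its summed level of 12 genes of cerebellar neurons was 659 FPKM, against 248 and 255 in the other controls, 20.2–31.5 in NE and 21.5–89.1 in brimonidine (89.1 in brimonidine 5), and its neutrophil sum was 9752 FPKM against 43520 and 45946 in the other controls. The part of this material in the results was not tested, and results that pass a threshold or change with control 2 are also given without it. In these bulk samples, fewer cells of a type and less RNA per cell cannot be told apart.

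Levels between genes can be compared because FPKM is a value per length. Over the 17 libraries the mean level was 12.6 FPKM for Vcam1, 12.2 for Pecam1, 11.7 for Icam1 and 11.2 for Cdh5, and these neighbors kept that order in only 10 to 12 of 17 libraries. Icam2 followed at 8.29 FPKM, below Cdh5 in 16 of 17 libraries and above Selp in 17 of 17. Selp (4.71 FPKM), Kdr (4.40), Tek (4.33) and Sele (4.20) could not be ordered against each other, since neighbors kept the order in 7 to 11 of 17 libraries. Flt1 was lowest at 2.89 FPKM and lay below Sele in 16 of 17. Each member rested on at least 73 fragments in a library (Sele in control 2), and the range for Vcam1 was 1294–2342 fragments.

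**Figure D1:**
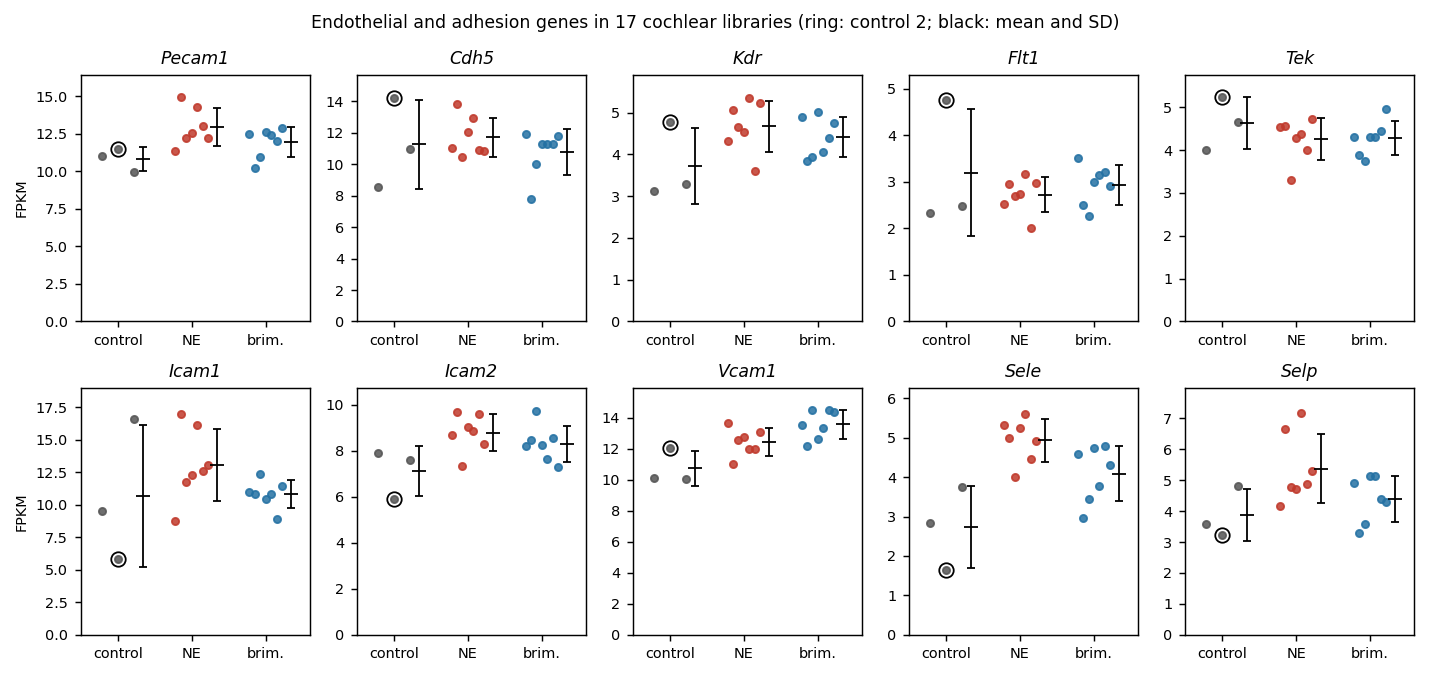
FPKM of the 10 genes (y axis, from 0) in the control, NE and brimonidine (brim.) groups, 1 point per library, with the group mean and SD in black and control 2 ringed. For Sele the 7 NE libraries (4.00–5.60) lie above the 3 controls (1.65–3.74), and for Vcam1 the 7 brimonidine libraries (12.2–14.5) lie above the controls (10.1–12.0).

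The comparison of NE with control asked whether noise changed these genes at 2 days. Of the members, Sele was higher in NE at the adjusted threshold, 1.80 times the control mean, and no member passed both thresholds of the study (adjusted p under 0.05 and at least a doubling). In limma with Benjamini–Hochberg adjustment over 15950 genes, 0 of 10 members passed both thresholds, where 5.76% of all genes did (43 genes, 0.27%, higher and 875, 5.49%, lower), and voom on the recovered fragments also called 0 of 10. Without the fold requirement 1 of 10 passed, where 14.1% of all genes passed and 2.12% were higher. At an unadjusted p under 0.05, 5 of 10 members (Pecam1, Icam2, Vcam1, Sele and Selp) were higher and 0 lower, against 10.6% and 22.3% of all genes (32.9% in either direction). The median log2 fold change of the 10 was 0.25, with 8 above 0, beside a median of -0.04 over all genes tested.

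Sele, the endothelial selectin, measured 2.83, 1.65 and 3.74 FPKM in controls 1, 2 and 3. In the NE group it ranged from 4.00 to 5.60 FPKM with a median of 4.98. Each NE library exceeded each control, so the groups did not overlap, as for 18.3% of all genes and 3.24% in that direction. The means were 4.93 ± 0.54 FPKM in NE (SD, n = 7) and 2.74 ± 1.05 in control (n = 3). The log2 fold change of FPKM + 1 was 0.70 (SE 0.16, limma adjusted p = 0.0139), and the exact two-sided permutation test gave p = 0.00833, the smallest that 7 against 3 allows. Control 2 had the lowest Sele of the 17 libraries, and without it the log2 fold change was 0.47 (limma adjusted p = 0.0394). Relative to the 22 other endothelial genes that passed the filter, to which each library was centred, it was 0.65 (limma adjusted p = 0.0543). Over all alternatives and left-out libraries the log2 fold change lay between 0.37 and 0.91, and the adjusted threshold was passed in 18 of 20. The highest limma adjusted p was 0.381, with a block for the replicate number.

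Selp, the selectin of endothelial storage granules and platelets, measured 3.59, 3.22 and 4.82 FPKM in the controls and 4.16–7.19 FPKM in NE (median 4.89). The lowest NE libraries lay below control 3, so the groups overlapped, although each NE library exceeded the control mean. The log2 fold change was 0.38 (SE 0.16, limma adjusted p = 0.118, exact permutation p = 0.075). The summed level of 10 platelet and megakaryocyte genes was 346–725 FPKM in control and 430–594 in NE, and 0 of the 10 passed the adjusted limma test, with 0 at an unadjusted p under 0.05. With all libraries 2 of these 10 genes were higher in NE and 8 lower (median -0.05). Without control 2, which had the sum of 725 FPKM, 10 of 10 were higher (median 0.23, 0 past the adjusted threshold), and Selp was at 0.29 (limma adjusted p = 0.396). The part of these cells in the Selp value was not tested.

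The Itgb2 ligand Icam1 spread most among the controls, at 9.50, 5.86 and 16.6 FPKM, against 8.78–17.0 in NE (median 12.6). Control 2 was the lowest and control 3 the second highest of the 17 libraries, and the NE group fell almost wholly inside the control range. The log2 fold change was 0.36 (SE 0.26, limma adjusted p = 0.351), with a 95% interval of -0.21 to 0.93, so a near doubling in NE was not excluded by these data. It was 0.03 to 0.71 when a library was left out, and -0.24 under array weights.

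The constitutive adhesion molecule Icam2 measured 7.88, 5.88 and 7.58 FPKM in the controls and 7.32–9.70 in NE (median 8.84). In NE 6 of 7 libraries exceeded every control. The log2 fold change was 0.27 (SE 0.10, limma adjusted p = 0.0976, exact permutation p = 0.025), and 0.16 without control 2 (limma adjusted p = 0.382). Vcam1 measured 10.1, 12.0 and 10.1 FPKM in the controls and 11.0–13.7 in NE (median 12.6), with a log2 fold change of 0.20 (SE 0.08, limma adjusted p = 0.132, exact permutation p = 0.0417). Here control 2 was the highest control, and 4 of 7 NE libraries exceeded it.

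Of the junction genes, Pecam1 measured 11.1, 11.5 and 9.95 FPKM in the controls and 11.4–15.0 in NE (median 12.6), a log2 fold change of 0.24 (SE 0.09, limma adjusted p = 0.103, exact permutation p = 0.0333). Cdh5, a marker specific to endothelium, measured 8.56, 14.2 and 11.0 FPKM in the controls and 10.5–13.8 in NE (median 11.0). The NE group lay inside the control range, since control 2 was the highest and control 1 nearly the lowest of the 17. The log2 fold change of Cdh5 was 0.07 (SE 0.13, limma adjusted p = 0.733), 0.24 without control 2 (limma adjusted p = 0.284) and -0.094 without control 1 (limma adjusted p = 0.594).

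None of the growth factor receptors passed the adjusted threshold with the values as deposited and all libraries. Kdr measured 3.13, 4.76 and 3.28 FPKM in the controls and 3.59–5.34 in NE (log2 fold change 0.27, SE 0.13, limma adjusted p = 0.167). Without control 2 Kdr was at 0.43 (limma adjusted p = 0.0611), and it passed under quantile normalization (0.48, limma adjusted p = 0.00602) and array weights (0.44, limma adjusted p = 0.000819). Flt1 measured 2.33, 4.77 and 2.49 FPKM in the controls and 2.00–3.17 in NE (-0.13, SE 0.17, limma adjusted p = 0.611). Tek measured 4.01, 5.23 and 4.65 FPKM in the controls and 3.30–4.73 in NE (-0.10, SE 0.11, limma adjusted p = 0.534). In each of the 3 receptors control 2 was the highest control, and without it the log2 fold change of Flt1 turned to 0.12 and that of Tek was -0.02. Without control 1 Tek was at -0.18 (limma adjusted p = 0.263).

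**Figure D2:**
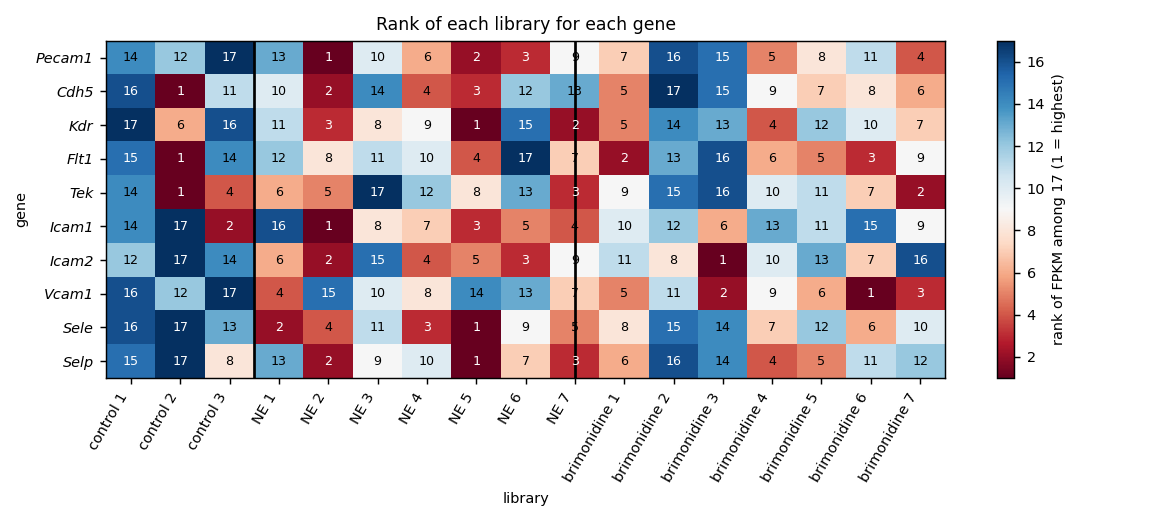
Rank of each library (x axis) among the 17 for each gene (y axis), with 1 and dark red for the highest FPKM and 17 and dark blue for the lowest. Control 2 ranks 1 for Cdh5, Flt1 and Tek and 17 for Icam1, Icam2, Sele and Selp.

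The members split within control 2 itself. It had the highest level of the 17 libraries for Cdh5, Flt1 and Tek and the lowest for Icam1, Icam2, Sele and Selp. As a ratio of FPKM, Sele to Cdh5 was 0.330, 0.116 and 0.340 in controls 1, 2 and 3, against 0.361–0.482 in NE and 0.335–0.425 in brimonidine. Controls 1 and 3 thus lay close to the lowest exposed libraries, and control 2 lay far below them. With Icam2 in place of Cdh5, the ratio was 0.359, 0.281 and 0.493 in the controls, 0.465–0.634 in NE and 0.351–0.589 in brimonidine, so the gap of control 2 was smaller against a gene that was not highest there. These pairs were picked after the values were seen, and they are given without a test. The summed level of 10 genes of brain endothelium was also highest in control 2, at 145 FPKM against 84.6 and 92.1 in the other controls and 77.6–95.9 in the exposed libraries.

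The comparison of brimonidine with NE asked whether the drug changed these genes in noise-exposed cochleae. No member passed a threshold adjusted over all genes, and the fitted differences were small, from -0.24 to 0.12 on the log2 scale. In limma 0 of 10 members were called, where 0% of 15707 genes passed both thresholds and 0.00637% passed the adjusted p alone, and voom called 0 of 10. At an unadjusted p under 0.05, 2 of 10 passed (Sele lower and Vcam1 higher), beside 5.77% of all genes (2.46% lower and 3.30% higher). In value, 7 of the 10 were lower in brimonidine, with a median log2 fold change of -0.09 beside 0.01 over all genes.

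Sele measured 2.97–4.80 FPKM in brimonidine (median 4.30), against 4.00–5.60 in NE. In brimonidine 3 of 7 libraries fell below every NE library and all 7 fell below the NE mean, while the groups overlapped. Groups that did not overlap were rare in this comparison, at 0.14% of all genes (0.0382% lower in brimonidine), and 0 of 10 members were among them. The mean was 4.09 ± 0.70 FPKM (SD, n = 7), the log2 fold change -0.23 (SE 0.09, limma adjusted p = 0.822), and the exact permutation test gave p = 0.0309 before adjustment. Vcam1 moved the other way, with 12.2–14.5 FPKM (median 13.5) against 11.0–13.7 in NE. In brimonidine 3 of 7 libraries exceeded every NE library, at a log2 fold change of 0.12 (SE 0.05, limma adjusted p = 0.857, exact permutation p = 0.0385).

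Icam1, Selp and Pecam1 also had all 7 brimonidine libraries below the NE mean, and all 3 overlapped with NE. Icam1 measured 8.89–12.4 FPKM in brimonidine (median 10.8), a log2 fold change of -0.23 (SE 0.11, limma adjusted p = 0.865). The SD of Icam1 was 1.05 FPKM in brimonidine and 2.77 in NE. Selp measured 3.28–5.14 FPKM (median 4.38), a log2 fold change of -0.24 (SE 0.11, limma adjusted p = 0.865), and Pecam1 measured 10.2–12.9 FPKM (median 12.4), a log2 fold change of -0.11 (SE 0.06, limma adjusted p = 0.876). In the platelet and megakaryocyte list, 10 of 10 genes had values higher in brimonidine than in NE, where 57.7% of all genes were higher. None passed the adjusted threshold in limma, and 1 was at an unadjusted p under 0.05, where 5.77% of all genes were. The part of these cells in the Selp values was not tested.

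For the other members the 95% intervals show what these libraries could exclude. The log2 fold change was -0.12 for Cdh5 (interval -0.30 to 0.07), -0.07 for Icam2 (-0.21 to 0.06), -0.07 for Kdr (-0.23 to 0.10), 0.08 for Flt1 (-0.10 to 0.26) and 0.01 for Tek (-0.13 to 0.15). All of these intervals include 0, and the bound farthest from 0 was -0.30, for Cdh5.

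**Figure D3:**
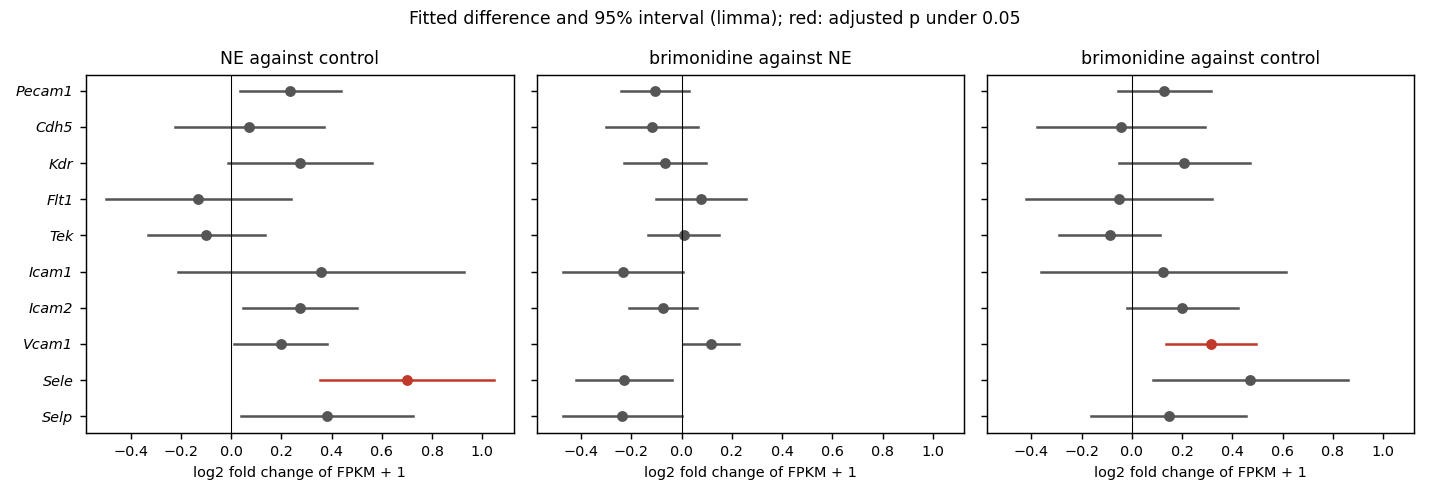
Fitted log2 fold change of FPKM + 1 (x axis) of the 10 genes (y axis) in the 3 comparisons, with 95% intervals from limma and red where the adjusted p was under 0.05. Red marks Sele in NE against control (0.70) and Vcam1 in brimonidine against control (0.32), while the values of brimonidine against NE lie between -0.24 and 0.12.

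The comparison of brimonidine with control used the same 3 control libraries as that of NE with control, so the values of both are given side by side and are not independent. Vcam1 was higher at the adjusted threshold, 1.27 times the control mean. In limma 0 of 10 members passed both thresholds, where 5.73% of 15947 genes did (0.169% higher and 5.56% lower), and voom called 0 of 10. Without the fold requirement 1 of 10 passed, where 15.8% of all genes passed and 3.47% were higher. At an unadjusted p under 0.05, 2 of 10 (Vcam1 and Sele) passed, where 35.6% of all genes did, and both were higher, against 13.6% of all genes.

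The 7 brimonidine libraries of Vcam1 (12.2–14.5 FPKM) all exceeded the 3 controls (10.1, 12.0 and 10.1 FPKM), and the groups did not overlap, as for 19.4% of all genes and 5.07% in that direction. The margin was narrow, since control 2 at 12.0 FPKM was close to the lowest brimonidine library at 12.2. The means were 13.6 ± 0.92 FPKM in brimonidine (SD, n = 7) and 10.7 ± 1.14 in control (n = 3), with a log2 fold change of 0.32 (SE 0.08, limma adjusted p = 0.0264, exact permutation p = 0.00833). The limma adjusted p was 0.0747 without control 3, 0.0507 without brimonidine 1 and 0.0536 without brimonidine 6. It was 0.0961 after rescaling to equal totals and 0.476 with a block for the replicate number, and these log2 fold changes lay between 0.27 and 0.32. The other 16 of 21 alternatives passed, among them leaving out control 2, at a log2 fold change of 0.39. Macrophages and stromal cells can also make Vcam1. In the same comparison 8 of 9 macrophage genes tested were higher (median 0.25), where 45.8% of all genes were. Of these, 3 passed the adjusted threshold, where 3.47% of all genes passed it and were higher. Without control 2, 9 of 9 were higher and 2 passed. Of 7 genes of marrow stroma 5 were higher, 0 of them past the adjusted threshold in the same limma fit. At an unadjusted p under 0.05, 1 of them was higher, against 13.6% of all genes. The part of macrophages and stromal cells in the Vcam1 value was not tested.

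Sele was 0.70 on the log2 scale for NE and 0.47 for brimonidine against the same controls (SE 0.18, limma adjusted p = 0.0875 for the latter, exact permutation p = 0.0333). In brimonidine 5 of 7 libraries exceeded every control, and without control 2 the log2 fold change was 0.24 (limma adjusted p = 0.35). Vcam1 was 0.20 for NE and 0.32 for brimonidine. Icam1 was 0.36 and 0.12, Selp 0.38 and 0.15, Icam2 0.27 and 0.20, and Pecam1 0.24 and 0.13. Kdr was 0.27 and 0.21, Cdh5 0.07 and -0.04, Flt1 -0.13 and -0.05, and Tek -0.10 and -0.09, and none of these 8 passed the adjusted threshold in either comparison. When single libraries were omitted, the values of brimonidine against control ranged from -0.21 (without control 2) to 0.47 (without control 3) for Icam1, from 0.05 (without control 2) to 0.28 (without control 3) for Selp, and from 0.09 (without control 2) to 0.27 (without control 1) for Icam2. They ranged from 0.07 (without control 3) to 0.17 (without control 2) for Pecam1, from -0.21 (without control 1) to 0.12 (without control 2) for Cdh5, from -0.20 (without control 1) to 0.20 (without control 2) for Flt1, and from -0.17 (without control 1) to -0.01 (without control 2) for Tek. Without control 2, Kdr reached 0.36 in brimonidine against control (limma adjusted p = 0.0453).

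**Figure D4:**
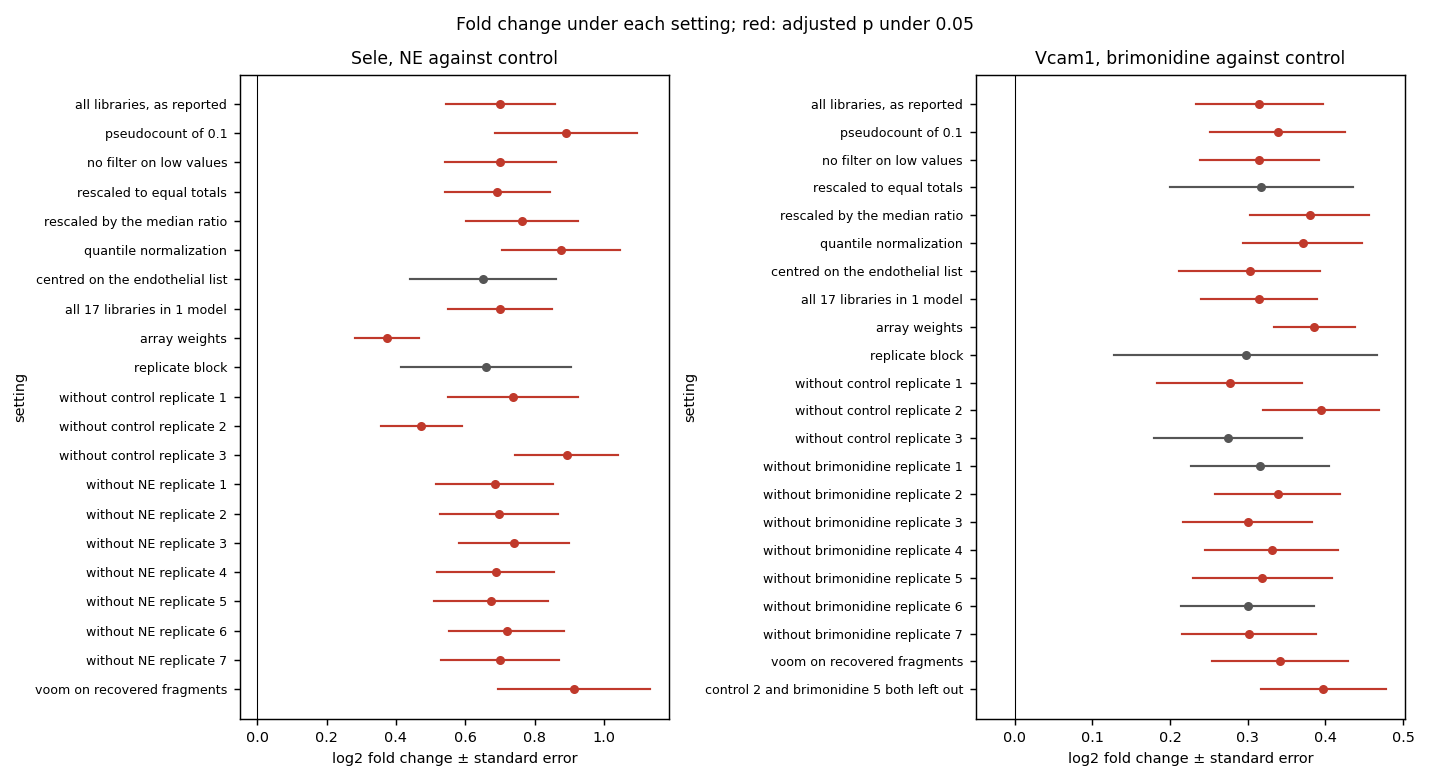
Log2 fold change ± standard error (x axis) of Sele in NE against control and of Vcam1 in brimonidine against control under each processing setting (y axis), red where the adjusted p was under 0.05. Sele stays above 0.37 throughout and passes the adjusted threshold in 18 of 20 alternatives. Vcam1 stays between 0.27 and 0.40 and passes it in 16 of 21.

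The partners of these genes were counted in lists. Of 17 leukocyte counter-receptor genes tested (integrin chains, selectin ligands and their glycosyltransferases), 16 were higher in NE than in control with a median log2 fold change of 0.46, where 43.9% of all genes were higher, and 3 of 17 passed the adjusted threshold, where 14.1% of all genes passed and 2.12% were higher. Those were Spn (CD43, a selectin ligand of leukocytes) at 0.92 (limma adjusted p = 0.0211), Itgb7, an integrin chain that pairs with Itga4, at 0.56 (limma adjusted p = 0.0267), and Fut4, a fucosyltransferase, at 0.47 (limma adjusted p = 0.0476). Without control 2, whose neutrophil sum was the lowest, 15 of 17 were higher, the median was 0.21 and only Spn passed (0.52, limma adjusted p = 0.0133), with Itgb7 at 0.43 (limma adjusted p = 0.128) and Fut4 at 0.25 (limma adjusted p = 0.128). Itgb2, the abundant partner chain for Icam1, averaged 175 FPKM in control, 259 in NE and 263 in brimonidine, with a log2 fold change of 0.69 in NE (limma adjusted p = 0.0971), which was 0.23 without control 2 (limma adjusted p = 0.249). Against NE, 0 of the 17 passed the adjusted threshold in brimonidine and 0 passed at an unadjusted p under 0.05.

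Among 22 other endothelial genes tested, 11 were higher and 11 lower in NE than in control, with a median of 0.002, and 2 passed the adjusted threshold, where 14.1% of all genes did. Erg, an endothelial transcription factor, was higher at 0.85 (limma adjusted p = 0.0188) and S1pr1, a receptor for sphingosine-1-phosphate, was lower at -0.79 (limma adjusted p = 0.0284). Without control 2, 20 were higher and 2 lower with a median of 0.20, Erg was at 0.59 (limma adjusted p = 0.0841) and S1pr1 at -0.44 (limma adjusted p = 0.0473). Of 13 ligands and coreceptors of the growth factor receptors, 0 passed the adjusted limma threshold in NE, and 4 were at an unadjusted p under 0.05, a share near the 32.9% of all genes, while Vegfa averaged 22.7 FPKM in control and 20.7 in NE.

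Of 16 genes of transmigration and other adhesion tested, 4 were higher and 12 lower in NE with a median of -0.16. Without control 2, 6 were higher and 10 lower with a median of -0.04. With all libraries 1 passed both thresholds, where 5.76% of all genes did. This was Ackr1, which carries chemokines across the endothelium of venules. It measured 12.8, 22.6 and 14.4 FPKM in the controls and 3.72–7.99 in NE, with no overlap. Its log2 fold change was -1.35 in NE (limma adjusted p = 0.00231) and -1.52 in brimonidine (limma adjusted p = 0.00111) against the shared controls. Without control 2 these were -1.13 (limma adjusted p = 0.0124) and -1.29 (limma adjusted p = 0.0012). The summed level of cerebellar neuron genes was also highest in the controls, at 248–659 FPKM against 20.2–31.5 in NE and 21.5–89.1 in brimonidine. The controls other than control 2 held 248 and 255 FPKM. The part of this material in the Ackr1 value was not tested. Of 11 genes of pericytes and smooth muscle tested, 5 were higher and 6 lower, and 0 passed the adjusted limma threshold, with 3 at an unadjusted p under 0.05, where 32.9% of all genes were. Without control 2, 9 of these 11 were higher with a median of 0.20, and Des, which encodes the filament protein desmin, passed at 1.06 (limma adjusted p = 0.0149), against 0.73 with all libraries. Of 9 genes of brain endothelium tested, 8 were lower in NE than in control with a median of -0.39, which was -0.11 without control 2, and Slco1a4, a transporter of brain capillaries, was at -0.72 (limma adjusted p = 0.0182) and at -0.43 without control 2 (limma adjusted p = 0.0198).

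How the members moved together was described over the 14 exposed libraries after the mean of each group was removed. These correlations share their libraries and the depth of each, and they carry no test. Over the 45 pairs the median Pearson r was 0.38, and 33 were above 0. Pecam1 followed Selp at r = 0.90 (Spearman rho 0.88, r = 0.86 without the 2 farthest libraries) and Cdh5 at r = 0.88 (rho 0.85, 0.81). Kdr followed Flt1 at r = 0.84 (rho 0.76, 0.72). Sele followed Cdh5 at r = 0.77 (rho 0.63), which fell to 0.50 without the 2 farthest libraries. Among these genes and Tek, the pooled values also combined unlike groups. Pecam1 with Tek had r = 0.17 within NE and 0.81 within brimonidine, and Pecam1 with Sele 0.20 and 0.85. Kdr with Flt1 went the other way, at 0.99 and 0.67.

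Of the immunoglobulin-type adhesion genes, Icam2 had r between -0.41 and 0.29 with the other members, and Vcam1 between -0.55 and 0.24, and these pooled values combined unlike values within the groups. Vcam1 with Pecam1 had r = -0.94 within NE and 0.30 within brimonidine, Vcam1 with Selp -0.75 and 0.01, and Vcam1 with Cdh5 -0.71 and 0.54. Icam2 with Tek had r = 0.58 within NE and -0.82 within brimonidine. Each value within a group rests on 7 libraries, and these differences were not tested. The lowest value, -0.55 for Icam1 with Vcam1, rested on 2 libraries: it was -0.11 without the 2 farthest, -0.85 within NE and 0.03 within brimonidine. Icam1 and Pecam1 had r = 0.94 within the 7 NE libraries and -0.18 within the 7 brimonidine libraries. Of 16416 genes, the 5 closest to Cdh5 were Col4a1 (r = 0.95) and Col4a2 (0.94), both chains of basement membrane collagen, Rilpl1 (0.92), Slco2a1 (0.91) and Stt3a (0.88). The 5 closest to Sele were Sec24d (r = 0.89), Flt4 (0.88), the lymphatic growth factor receptor, Herpud1 (0.87), Sec24c (0.83) and Hdlbp (0.83).

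**Figure D5:**
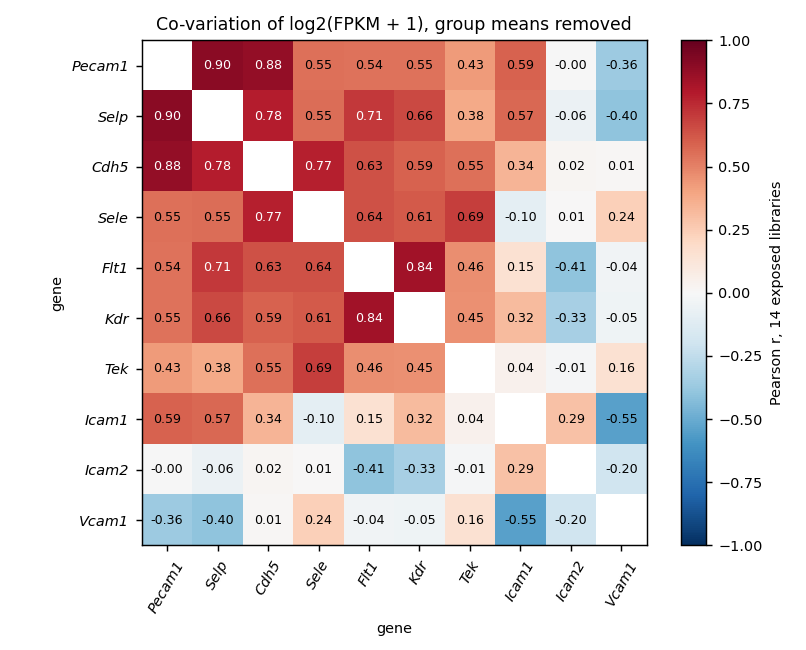
Pearson r between the 10 genes (both axes) over the 14 exposed libraries, from log2(FPKM + 1) with the mean of the NE and of the brimonidine group removed. With both groups pooled, Pecam1, Selp, Cdh5, Sele, Flt1, Kdr and Tek form a block of values from 0.38 to 0.90. Within NE alone Pecam1 with Tek is at 0.17. Icam2 and Vcam1 have pooled values from -0.55 to 0.29.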

How the data were processed

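Total RNA of 17 cochlear samples was made into strand-specific mRNA libraries by the authors with a TruSeq kit and run on a NovaSeq sequencer. The deposited FPKM values were made by the authors as the fragments counted on a gene divided by its merged exon length and by the library total. The submitters' processing notes name Trimmomatic, HISAT2, Cufflinks, HTSeq and mm10, without roles or versions. From these values, log2(FPKM + 1) was fitted, for genes that reached FPKM 1 in 3 or more of the compared libraries, with limma 3.58.1 in R 4.3.3 (lmFit, eBayes with trend). Each model held 2 groups, and p-values were adjusted over all genes by Benjamini–Hochberg. Log2 fold changes of FPKM + 1 understate changes of low genes. The study's thresholds (adjusted p under 0.05, absolute log2 fold change of at least 1) defined a call, while its DESeq2 test needs counts and was not used. Single genes were tested with exact two-sided permutation tests (Python 3.11.15, scipy 1.17.1, numpy 2.4.6, pandas 2.3.3), and figures were drawn with matplotlib 3.10.9.

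FPKM multiplied by the exon length of GENCODE M21 gave whole fragments for the members, with 14457733 to 18288854 fragments per library. These were fitted with limma's voom, added after the values were seen, as was leaving out control 2 and brimonidine 5 together or control 2 from the list counts. On simulated data with 200 changed genes at a log2 fold change of 2, the fit recovered 197 (NE with control, 15554 genes), 196 (brimonidine with NE, 15881) and 193 (brimonidine with control, 15595), with 0, 0 and 1 false calls. The simulated spread came from the exposed libraries only and was given to the controls as well. The recovery in the comparisons with control therefore does not describe the spread of the real controls. Other alternatives were the pseudocount, the filter, 3 rescalings, centring on endothelial genes, 1 model for all libraries, array weights, no minimum fold, a block for the replicate number, and leaving out single libraries. The text names the 10 members, the genes of each list with the smallest p or highest mean, and the 5 genes most correlated with Cdh5 and with Sele. Fut4 and the lists' further calls were named after their values were seen. The members and lists were chosen with earlier results of these data known. Of the lists, Icam4 and Ahsp were not found in the table, and Itgam was read as the identifier with the highest mean.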

Additional observations from a re-analysis of the deposited data

How the results depend on the processing

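Of 650 recomputed member values, 598 kept their direction and side of the adjusted threshold, 18 gained it, 7 lost it and 27 changed sign. The count of members past both thresholds was 0 under every setting that kept the fold requirement, including each library left out (0 to 0), and without it 1 member passed in NE against control (2247 genes), 0 in brimonidine against NE (1 gene) and 1 in brimonidine against control (2518 genes). Genes called with a library left out ranged from 368 (without control 2) to 934 in NE against control, 0 to 0 in brimonidine against NE, and 468 (without control 2) to 1080 in brimonidine against control, with 343 there without control 2 and brimonidine 5. Array weights called 1 gene in brimonidine against NE. Same-numbered libraries shared only a number (correlations of -0.22 to 0.08), and with the replicate block 0, 0 and 236 genes were called, Sele in NE was at 0.66 (limma adjusted p = 0.381) and Vcam1 in brimonidine against control at 0.30 (limma adjusted p = 0.476).

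The threshold was gained in NE against control by Pecam1 under 4 alternatives, Vcam1 under 3, Kdr under 2 and Selp and Icam2 under 1 each, and in brimonidine against control by Kdr and Sele under 3 each and Pecam1 under 1, counting each library left out.

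Of the values that changed sign, 1 passed the adjusted threshold, Icam1 in brimonidine against control under array weights (-0.50, limma adjusted p = 0.00663, range over all its alternatives 0.00663 to 0.825). In NE against control they were Flt1 (0.10) and Tek (0.10) under quantile normalization, which moved the median of all genes by 0.106, and Flt1 (0.13) and Icam1 (-0.24) under array weights. With a library left out, Cdh5 was at -0.094 (without control 1) to 0.24 and Flt1 at -0.27 to 0.12. In brimonidine against NE only Tek changed sign, at -0.0062 by the median ratio, -0.00095 under quantiles and -0.039, -0.0019 and -0.021 without NE 3, NE 6 or brimonidine 7, up to 0.034. In brimonidine against control, Cdh5 and Flt1 were at 0.021 and 0.0023 by the median ratio, and Cdh5, Flt1 and Tek at 0.0049, 0.17 and 0.10 under quantiles. Under array weights Cdh5, Flt1 and Selp were at 0.029, 0.21 and -0.027, and without control 2 and brimonidine 5 Cdh5, Flt1 and Icam1 at 0.11, 0.19 and -0.21. Without control 2 these 3 were at 0.12, 0.20 and -0.21, the far ends being -0.21, -0.20 and 0.47, and Cdh5 was at 0.024 without brimonidine 2. The causes were not tested. The comparisons with control rest on 3 libraries, of which control 2 stood apart. Recovery was tested on simulated data only at a log2 fold change of 2 and with the spread of the exposed libraries.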

Other observations

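Neutrophil genes were higher in 10 of 10 in NE, where 43.9% of all genes were higher. Their median was 0.76, and 0.06 without control 2. With all libraries 0 passed the adjusted limma threshold, with 1 at an unadjusted p under 0.05. Prox1, a transcription factor of lymphatic endothelium that some neurons and cochlear supporting cells also make, measured 1.62, 5.09 and 1.70 FPKM in the controls and 0.469–0.789 in NE. It passed the filter on low values only through the controls, where it was high, and no test of it is given. The other 7 genes of the sinusoid and lymphatic list were higher in NE, none past the adjusted threshold in limma and 1 (Flt4, 0.33) at an unadjusted p under 0.05, where 32.9% of all genes were.

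In 20 sets of 7 libraries (10 members in NE and in brimonidine), 0 held a library far from the others by Dixon's criterion (0.568).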
